A study of Mus musculus with 16 samples.

Results

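Transcripts of 10 genes that turn on, carry or damp NF-kB signalling were compared in MC903-treated mouse ear skin between mice in which the cytokine oncostatin M was neutralised by antibody (anti-OSM) and mice treated with antibody to Ly6G, a neutrophil surface protein (anti-Ly6G). The genes were Tnf, Tnfaip3, Nfkbia, Nfkbiz, Bcl3, Zc3h12a, Rel, Relb, Nfkb1 and Nfkb2, taken by symbol from the deposited table of 45777 genes. All 10 were found, and all 10 passed the filter on low counts. Between the antibody groups none of the 10 passed edgeR's quasi-likelihood test after adjustment over all genes. The intervals around the fold changes were narrow for Nfkb1 and wide for Tnf and Tnfaip3.

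NF-kB is a family of dimeric transcription factors that inhibitor proteins hold in the cytoplasm until signals from TNF, interleukin-1 or microbial receptors activate the IkB kinases. Once in the nucleus the dimers induce inflammatory genes and also the genes of their own inhibitors, so that the response is limited by negative feedback. In skin the pathway acts in keratinocytes as well as in infiltrating leukocytes, and loss of several of its inhibitors causes inflammation in mice.

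The anti-OSM group held 3 libraries and the anti-Ly6G group held 3 libraries of ear skin from C57BL6 mice labelled WT in the sample titles. Both ears had received 50 µM MC903 (calcipotriol, a vitamin D analogue that induces dermatitis) in 20 µL of ethanol daily for 10 days. Over this period the anti-OSM mice received 20 µg of antibody intradermally on alternate days. The anti-Ly6G mice received doses of 200 µg intraperitoneally, the first 2 days ahead of MC903 and the others on days 1 and 4 after it. The groups thus differ in route and timing as well as in antibody, and these cannot be told apart. No isotype antibody, mouse age or sex is given for these groups in the labels used here, and the 5 control and 5 MC903 libraries described in the labels were not analysed here. Which group departed from MC903 skin without antibody therefore cannot be told, nor can a batch difference be separated from the antibody. Whether replicates came from different animals is not stated in the labels, and each p-value refers to the variation among these libraries, which may be technical.

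Total counts were 52163179 to 59063578 in the anti-OSM libraries and 59381146 to 64122588 in the anti-Ly6G libraries. Keratinocyte transcripts were abundant in all 6 libraries, with 10 markers summing to 21310 to 25070 TPM with anti-OSM and 25860 to 32690 TPM with anti-Ly6G. On the first principal component, which held 43.6% of the variance, the anti-OSM libraries had scores of -34.7 to -26.6, and anti-Ly6G replicates 1, 2 and 3 had 38.6, 39.3 and 14.9, so that replicate 3 was the closest to anti-OSM. Of 19915 genes tested, 12.1% were called at an adjusted p under 0.05, 5.81% higher and 6.27% lower with anti-OSM.

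The regulatory sequence that several of these genes share is shown first, since it is the sequence that NF-kB binds. RefSeq promoter windows of GRCm38.p6 (250 bases before to 50 bases after a transcript start) were available for 7 of the 10 genes. The kappa B consensus, the decamer bound by NF-kB dimers, was found on either strand in 5 of these 7 genes, Bcl3, Nfkb2, Nfkbia, Rel and Tnfaip3. Over all 27025 genes with such a window, 9.55% held it. Tnf and Zc3h12a had no match, which says only that these letters were not in the window. The 100 bases around the match nearest the start are given 5′ to 3′ on the strand of the gene, with kappa B matches in capitals. Matches on opposite strands can overlap, and runs of capitals longer than 10 bases are overlapping matches.
Nfkbia, chr12:55492622-55492721, minus strand: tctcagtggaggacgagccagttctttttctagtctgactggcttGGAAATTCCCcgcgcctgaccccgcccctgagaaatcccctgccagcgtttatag
Tnfaip3, chr10:19015368-19015467, minus strand: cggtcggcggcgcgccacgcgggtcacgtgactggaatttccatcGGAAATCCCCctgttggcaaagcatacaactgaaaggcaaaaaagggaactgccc
Bcl3, chr7:19822706-19822805, minus strand: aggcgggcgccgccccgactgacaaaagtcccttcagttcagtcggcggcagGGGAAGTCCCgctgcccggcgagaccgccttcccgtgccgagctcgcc
Rel, chr11:23771006-23771105, minus strand: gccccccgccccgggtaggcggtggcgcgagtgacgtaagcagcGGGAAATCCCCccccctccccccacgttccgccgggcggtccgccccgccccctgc
Nfkb2, first of 3 starts, chr19:46304681-46304780, plus strand: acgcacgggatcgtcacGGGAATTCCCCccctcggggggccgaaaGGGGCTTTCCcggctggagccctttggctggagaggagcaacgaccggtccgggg
Counted from the first transcribed base as 0, the match in Nfkbia began at position -29, that nearest the start of Tnfaip3 at -12, that of Bcl3 at 2, those of Rel at -92 and -91, and those shown for Nfkb2 at -39, -38 and -11. The sequence TATAAA occurred on either strand in 3 of the 7 genes (Nfkbia, Tnf and Tnfaip3), against 15.7% of all genes with a window. The AP-1 sequence TGACTCA occurred in Tnfaip3 only among the 7, against 5.95% of all.

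Expressed per transcript length, the inhibitor gene Nfkbia had the highest level of the 10 genes and the cytokine gene Tnf the lowest. Nfkbia averaged 219 ± 15.3 TPM with anti-OSM and 233 ± 16.2 TPM with anti-Ly6G (SD, n = 3 each), above 98.1% of the genes with any count. Nfkb1 followed at 69.0 ± 1.19 TPM with anti-OSM and 71.1 ± 5.55 TPM with anti-Ly6G. Every Nfkbia library lay above every Nfkb1 library in both groups, and every Nfkb1 library lay above every Zc3h12a library. Zc3h12a averaged 48.7 ± 10.96 TPM with anti-OSM and 48.4 ± 2.07 TPM with anti-Ly6G. With anti-OSM its libraries overlapped those of Nfkb2, while with anti-Ly6G all lay above them. Nfkb2, Tnfaip3, Nfkbiz, Relb and Bcl3 had means between 27.0 and 41.5 TPM with anti-OSM and between 26.7 and 37.2 TPM with anti-Ly6G. Neighbours in the order of the means overlapped in each group, so the order of neighbours is not fixed by these data. With anti-OSM every Nfkb2 library (39.9 to 44.5 TPM) lay above every Relb library (29.0 to 36.1 TPM) and every Bcl3 library (24.6 to 30.6 TPM). With anti-Ly6G every Nfkb2 library lay above every Relb library but not above every Bcl3 library. Rel, at 16.2 ± 0.751 TPM with anti-OSM and 14.7 ± 0.728 TPM with anti-Ly6G, lay below all of these genes in every library. Tnf averaged 3.22 ± 0.367 TPM with anti-OSM and 4.15 ± 1.51 TPM with anti-Ly6G. These are levels in whole skin, where fewer cells of a type and less RNA per cell cannot be told apart.

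**Figure D1:**
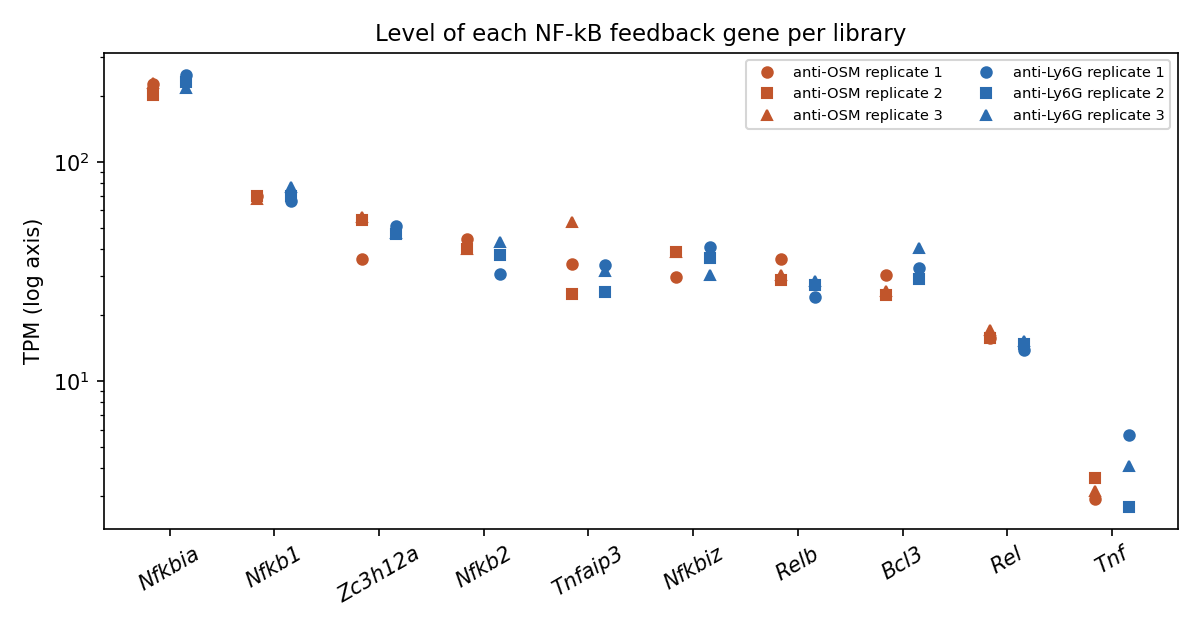
TPM of each of the 10 genes in each library on a log axis, anti-OSM libraries left and anti-Ly6G libraries right for each gene, with genes in the order of their anti-OSM mean. Nfkbia (219 and 233 TPM on average) stands at the top and Tnf (3.22 and 4.15 TPM) at the bottom. With anti-OSM, neighbours among the 5 genes from Nfkb2 to Bcl3 overlap.

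Of the 10 genes, 0 were called higher and 0 lower with anti-OSM by edgeR (adjusted p 0.0924 to 0.915), against the 12.1% of all tested genes given above. At an unadjusted p under 0.05, 4 of 10 passed (Relb, Rel and Nfkb2 with positive and Bcl3 with negative fold changes), against 29.0% of all tested genes. DESeq2 called 0 of 10 with a lowest adjusted p of 0.0663, and 3 passed unadjusted. In limma-voom 0 of 10 were called with a lowest adjusted p of 0.0987, and 4 passed unadjusted. The 29.0% is edgeR's, and the unadjusted share over all genes is not given here for DESeq2 and limma-voom. The median log2 fold change of the 10 genes was 0.05, beside 0.01 over all tested genes, and 6 of the 10 were positive. The 95% interval lay within 1.5-fold in either direction for 7 of the 10 genes and within 2-fold for 9. In every one of the 17 alternative fits the count of called genes among the 10 was 0.

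**Figure D2:**
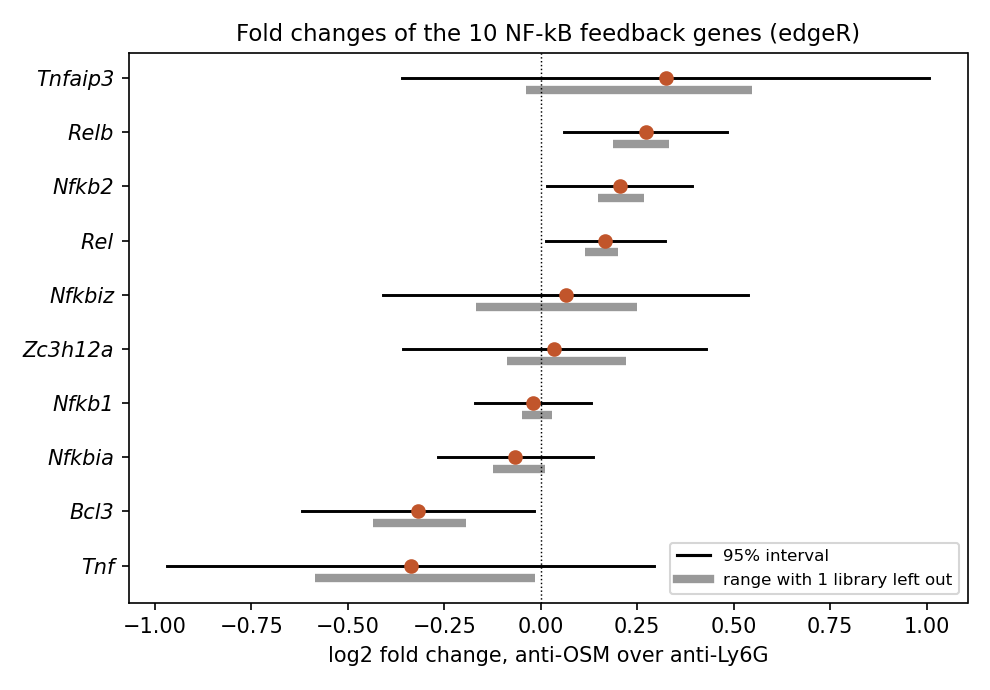
Log2 fold change of anti-OSM over anti-Ly6G for each gene (points), with its 95% interval (thin lines) and the range over the 6 fits that each leave out 1 library (grey bars). The points run from -0.34 for Tnf to 0.32 for Tnfaip3, and the intervals of Relb, Nfkb2, Rel and Bcl3 do not reach 0 although none of the 4 passed after adjustment.

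Tnf encodes the inflammatory cytokine that activates NF-kB through TNF receptors and is itself induced by NF-kB (gene ID 21926, chromosome 17, 35199367 to 35202007). It had 2.28, 2.93 and 2.58 CPM (counts scaled to library size) in anti-OSM replicates 1 to 3, against 4.61, 2.04 and 3.18 CPM in anti-Ly6G replicates 1 to 3. The highest and the lowest value were both in the anti-Ly6G group, so the groups overlapped and the spread within anti-Ly6G covered all anti-OSM values. The log2 fold change was -0.34 (SE 0.28, 95% interval -0.97 to 0.29, adjusted p = 0.462 in edgeR). Leaving out anti-Ly6G replicate 1 moved it to -0.01 and leaving out anti-Ly6G replicate 2 to -0.59. These values rest on 121, 173 and 147 reads with anti-OSM and 283, 120 and 205 reads with anti-Ly6G.

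The mRNA of Tnf is known for an AU-rich element in its 3′ untranslated region, which binds the decay factor encoded by Zfp36. In the GENCODE M21 transcripts, the nonamer of that element occurred 5 times in the Tnf 3′ untranslated region, once each (1 match) in those of Nfkbia, Rel and Tnfaip3, and in none of the other 6 genes. Over 21028 genes with an annotated 3′ untranslated region, 7.66% held it. A stretch of the Tnf element is shown because it carries 3 of the 5 matches, here in capitals.
Tnf, chr17:35199684-35199713, GRCm38, minus strand: cacttaTTATTTATTATTTATTTATTattt

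The DNA-binding subunits are encoded by Nfkb1, Nfkb2, Rel, Relb and Rela, of which the precursors p105 and p100 from Nfkb1 and Nfkb2 also act as inhibitors until they are processed. Nfkb1 (gene ID 18033, chromosome 3, 135584655 to 135691969), the precursor gene of the classical pathway, had 138, 141 and 139 CPM with anti-OSM, against 137, 136 and 151 CPM with anti-Ly6G. The groups overlapped and only anti-Ly6G replicate 3 stood above the rest. Its log2 fold change of -0.02 had the narrowest interval of the 10 genes (SE 0.07, -0.17 to 0.13, adjusted p = 0.875).

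Relb, the partner of p52 in the alternative pathway (gene ID 19698, chromosome 7, 19606217 to 19629438), had 37.9, 31.2 and 32.9 CPM with anti-OSM, against 26.4, 28.5 and 29.7 CPM with anti-Ly6G. All 3 anti-OSM libraries lay above all 3 anti-Ly6G libraries. Relb had a log2 fold change of 0.27 (SE 0.09, interval 0.06 to 0.48, adjusted p = 0.0924 in edgeR). This was the smallest adjusted p of the 10 genes, and it did not pass.

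Nfkb2 (gene ID 18034, chromosome 19, 46300994 to 46312400) encodes p100, which is processed to p52. It had 76.1, 65.9 and 74.6 CPM with anti-OSM, against 63.1, 57.7 and 67.1 CPM with anti-Ly6G. Anti-OSM replicate 2 lay below anti-Ly6G replicate 3, so the groups overlapped. Nfkb2 had a log2 fold change of 0.20 (SE 0.08, interval 0.02 to 0.39, adjusted p = 0.142). In GENCODE M21, 6.52% of its exon bases also lie in exons of Psd on the opposite strand and 11.6% in those of a long non-coding gene on the opposite strand. The labels and headers do not say whether counting used strand, so reads there cannot be assigned with certainty.

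Rel encodes c-Rel, a subunit prominent in lymphoid and myeloid cells (gene ID 19696, chromosome 11, 23736847 to 23770969). It had 56.0, 57.3 and 62.6 CPM with anti-OSM, against 51.2, 51.4 and 54.0 CPM with anti-Ly6G. The groups did not overlap, and the anti-OSM values were the higher ones. For Rel the log2 fold change was 0.17 (SE 0.07, interval 0.01 to 0.32, adjusted p = 0.142). Relb and Rel were the 2 of the 10 genes whose groups did not overlap, both with anti-OSM above. Over all tested genes 35.0% had groups that did not overlap, 17.7% with anti-OSM above and 17.3% below. Rela, the fifth subunit gene, had 74.7, 68.3 and 72.5 CPM with anti-OSM, against 69.5, 71.3 and 73.0 CPM with anti-Ly6G (log2 fold change 0.01, adjusted p = 0.926). Its groups overlapped.

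Of the genes that restrain the pathway, Nfkbia encodes IkB-alpha, the inhibitor that is degraded on activation and resynthesised from its own kappa B sites (gene ID 18035, chromosome 12, 55489409 to 55492647). It had 169.9, 155 and 178 CPM with anti-OSM, against 195, 169 and 162 CPM with anti-Ly6G. The values interleaved. The log2 fold change was -0.07 (SE 0.09, interval -0.27 to 0.14, adjusted p = 0.668).

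Tnfaip3 encodes A20, a ubiquitin-editing enzyme that shuts off signalling from TNF and Toll-like receptors (gene ID 21929, chromosome 10, 19000910 to 19015410). It had 71.6, 53.6 and 116 CPM with anti-OSM, against 74.2, 52.2 and 65.8 CPM with anti-Ly6G. Anti-OSM replicate 3 stood above the other 5 libraries, which ranged together in both groups. The coefficient of variation with anti-OSM was 39.7%, larger than that of 93.8% of tested genes. The log2 fold change was 0.32 (SE 0.28, interval -0.36 to 1.01, adjusted p = 0.503), and -0.04 without anti-OSM replicate 3 (adjusted p = 0.927).

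Nfkbiz encodes IkB-zeta, a nuclear cofactor that supports transcription of a subset of inflammatory and antimicrobial genes in keratinocytes (gene ID 80859, chromosome 16, 55811375 to 55838954). It had 51.96, 69.9 and 92.3 CPM with anti-OSM, against 78.0, 62.9 and 63.9 CPM with anti-Ly6G. Both the lowest and the highest library were in the anti-OSM group. The log2 fold change was 0.06 (SE 0.20, interval -0.41 to 0.54, adjusted p = 0.863). It was 0.25 without anti-OSM replicate 1 (adjusted p = 0.349) and -0.17 without anti-OSM replicate 3 (adjusted p = 0.567).

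Bcl3 encodes an IkB-like nuclear protein that binds p50 and p52 dimers (gene ID 12051, chromosome 7, 19808462 to 19822824). It had 26.7, 21.97 and 23.3 CPM with anti-OSM, against 29.8, 24.9 and 35.1 CPM with anti-Ly6G. Anti-OSM replicate 1 lay above anti-Ly6G replicate 2, so the groups overlapped. For Bcl3 the log2 fold change was -0.32 (SE 0.13, interval -0.62 to -0.02, adjusted p = 0.152 in edgeR). An annotated antisense gene shares 6.51% of its exon bases.

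Zc3h12a encodes Regnase-1, an endonuclease that degrades inflammatory mRNAs such as that of Il6 (gene ID 230738, chromosome 4, 125118414 to 125127881). It had 48.1, 74.1 and 76.8 CPM with anti-OSM, against 70.4, 61.4 and 62.6 CPM with anti-Ly6G. Anti-OSM replicate 1 was the lowest and anti-OSM replicates 2 and 3 the highest of the 6 libraries. Between the groups the log2 fold change was 0.04 (SE 0.17, interval -0.36 to 0.43, adjusted p = 0.915). It was 0.22 without anti-OSM replicate 1 (adjusted p = 0.175) and -0.09 without anti-OSM replicate 3 (adjusted p = 0.817).

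**Figure D3:**
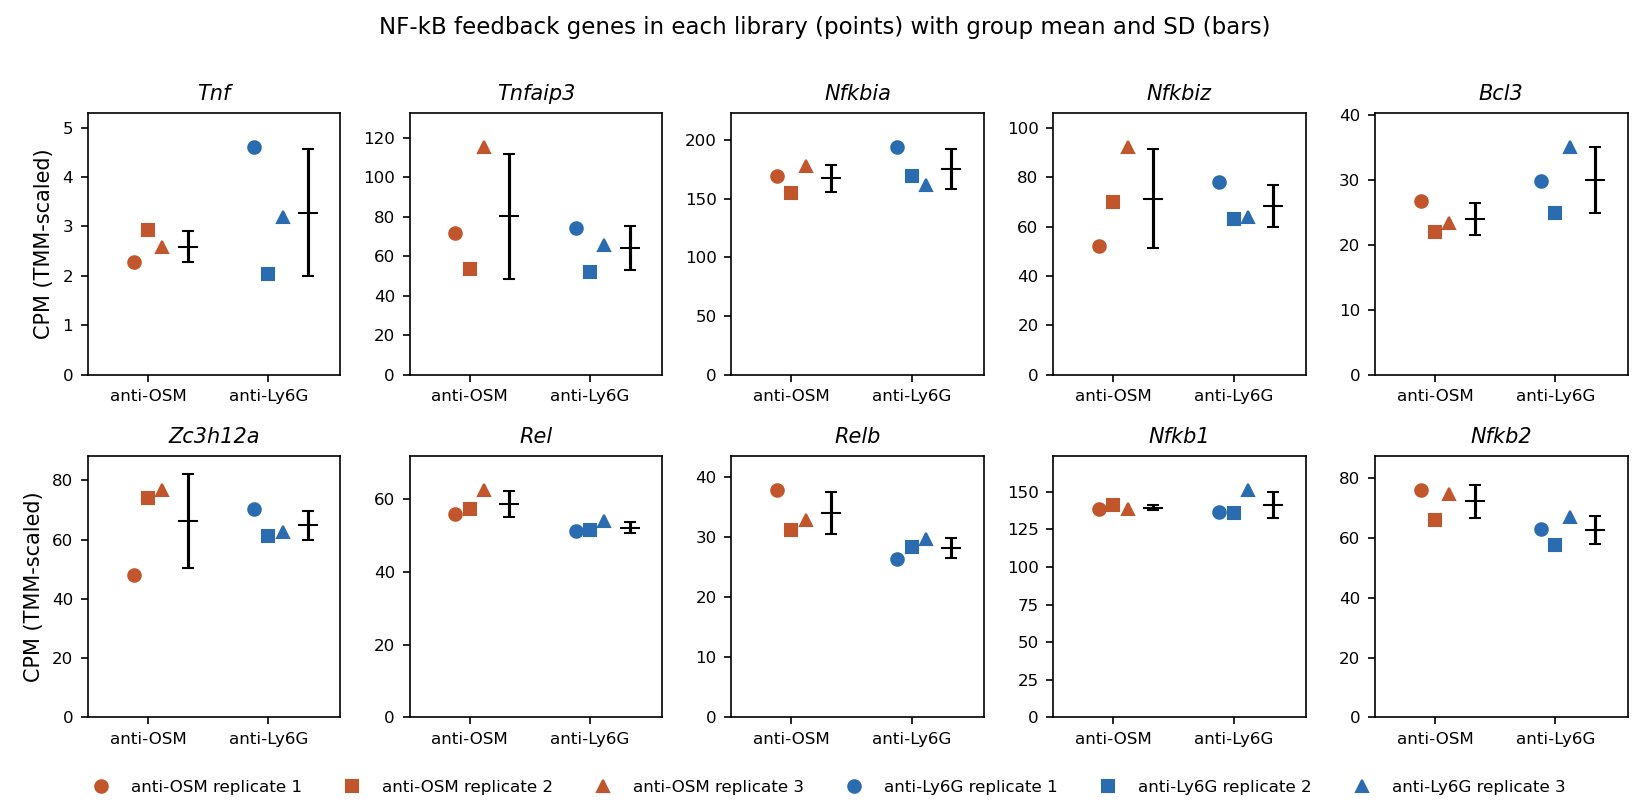
CPM of each gene in each library (points, marker shape by replicate), anti-OSM left and anti-Ly6G right, with the group mean and SD beside the points and each axis starting at 0. Relb and Rel are the genes whose groups do not overlap, anti-OSM replicate 3 stands apart for Tnfaip3 (116 CPM), and Nfkb1 is nearly level across all 6 libraries.

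The deposited TPM and read counts moved together for 8 of the 10 genes but not for Nfkbiz and Nfkb2. For each gene, the read count per unit of TPM was scaled to the median gene of its library and then to the mean of the 6 libraries. Values away from 1 mean that count and TPM give different ratios between libraries. For Nfkbiz this ratio was 0.908, 0.916 and 1.20 with anti-OSM, against 0.953, 0.920 and 1.10 with anti-Ly6G. Anti-OSM replicate 3 and anti-Ly6G replicate 3 were high, and replicates 1 and 2 of both groups were low. For Nfkb2 it was 1.00, 0.941 and 1.06 with anti-OSM, against 1.16, 0.919 and 0.920 with anti-Ly6G. The highest ratio was 1.32 times the lowest for Nfkbiz and 1.26 times for Nfkb2, larger than in 98.2% and 97.3% of the 14201 genes with at least 100 counts in every library, where the median was 1.01. In the other 8 genes it was at most 1.01. The table lists 4 transcripts each for Nfkbiz and Nfkb2, and whether their mix differs between libraries was not tested. On the TPM scale neither gene passed, with adjusted p = 0.987 for Nfkbiz and 0.421 for Nfkb2 by limma on log2(TPM + 1).

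**Figure D4:**
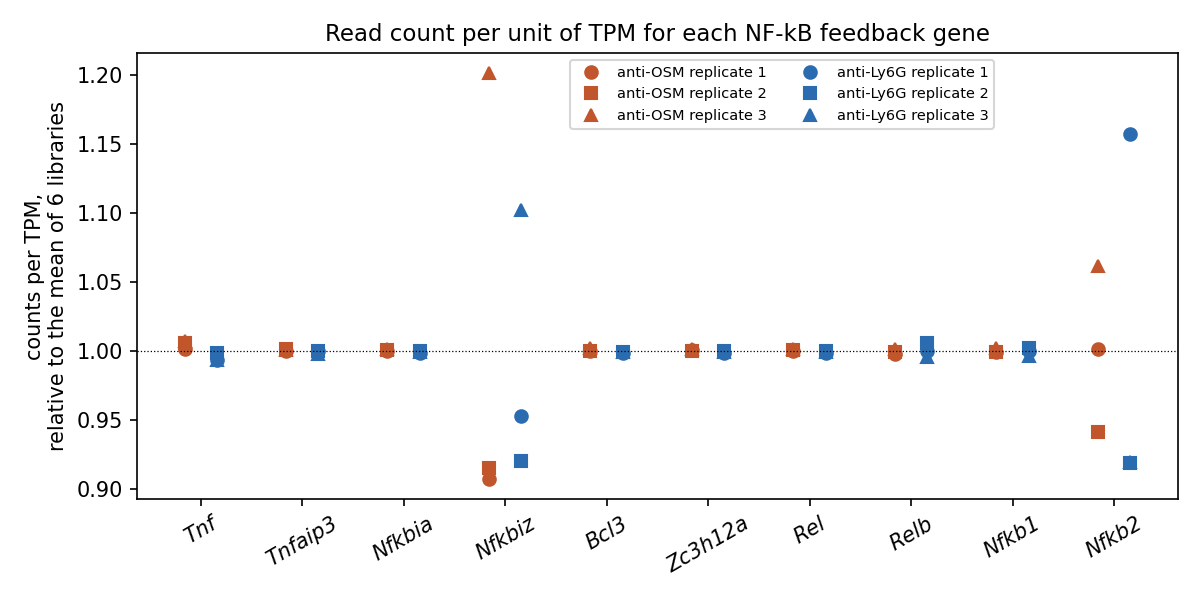
Read count per unit of TPM for each gene and library, relative to the mean of the 6 libraries, anti-OSM left and anti-Ly6G right. Nfkbiz (0.908 to 1.20) and Nfkb2 (0.919 to 1.16) spread, and the other 8 genes stay close to 1.

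The rest of the pathway was followed in 6 lists of 123 genes in all, of which 120 were tested. With anti-OSM 8 were called higher and 3 lower, against 5.81% and 6.27% of all tested genes, and the median log2 fold change was 0.06. Other ligands of the TNF superfamily had 1 of 16 higher and 0 lower (median log2 fold change 0.35). That was Tnfsf12, which encodes TWEAK, an activator of the alternative pathway, at 26.1, 22.4 and 25.5 CPM with anti-OSM, against 11.9, 15.2 and 18.4 CPM with anti-Ly6G. All anti-OSM libraries lay above all anti-Ly6G libraries (log2 fold change 0.70, SE 0.15, adjusted p = 0.0248 in edgeR). Its call was lost without any 1 of the anti-OSM libraries or without anti-Ly6G replicate 2 (adjusted p up to 0.0875). Without anti-Ly6G replicate 3, 6 of these ligand genes were called higher, beside 1545 of all 20266 genes tested in that fit.

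Receptors and adaptors had 5 of 24 higher and 0 lower (median 0.10). Tlr4, the receptor for bacterial lipopolysaccharide, had 56.1, 47.4 and 57.2 CPM with anti-OSM, against 34.3, 31.2 and 41.1 CPM with anti-Ly6G. The groups were apart (log2 fold change 0.59, SE 0.12, adjusted p = 0.0175). Tnfrsf1b, the second TNF receptor gene, had 59.2, 58.0 and 66.4 CPM with anti-OSM, against 37.4, 40.4 and 51.2 CPM with anti-Ly6G (0.51, adjusted p = 0.0309). The ubiquitin ligase genes Birc3 (0.45, adjusted p = 0.0405) and Birc2 (0.28, adjusted p = 0.0249) were also higher with anti-OSM. So was Tnfrsf11a, which encodes RANK (0.32, adjusted p = 0.0386). With 1 library left out the list had 0, 1 and 0 called higher without anti-OSM replicates 1, 2 and 3, and 0, 1 and 5 without anti-Ly6G replicates 1, 2 and 3. Without anti-Ly6G replicate 2, 1 was also called lower. Tlr4 lost its call when anti-OSM replicate 1, anti-OSM replicate 3 or anti-Ly6G replicate 1 was omitted, Tnfrsf11a without any 1 library, and Birc2, Birc3 and Tnfrsf1b without any 1 library but anti-Ly6G replicate 3. By limma on log2(TPM + 1), 1 of the 5 was called (Tlr4, adjusted p = 0.0376).

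Kinases, scaffolds and Rela had 1 of 20 higher, Card9, an adaptor of myeloid lectin receptors (0.51, adjusted p = 0.0335), and 0 lower. Other inhibitors and mRNA decay factors had 1 of 25 higher, Tnip3, which encodes an A20-binding inhibitor (0.61, adjusted p = 0.0232), and 0 lower. Card9 lost its call without any 1 library but anti-Ly6G replicate 1 (adjusted p up to 0.109), and Tnip3 when anti-OSM replicate 1, anti-OSM replicate 2 or anti-Ly6G replicate 2 was omitted (adjusted p up to 0.0821). The inhibitor gene nearest to a call after it was Cyld, a deubiquitinase gene, at 0.24 (adjusted p = 0.0602).

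Inflammatory genes that NF-kB induces had 0 of 28 higher and 3 lower, with a median log2 fold change of -0.38 beside 0.05 for the 10 feedback genes. Ptgs2, the inducible cyclooxygenase gene, had 6.41, 6.04 and 8.53 CPM with anti-OSM, against 46.8, 35.8 and 56.4 CPM with anti-Ly6G. It kept its call in all 17 alternative fits (log2 fold change -2.73, SE 0.20, adjusted p = 0.00107). Ccl20, the ligand of Ccr6, had 2.17, 2.72 and 2.93 CPM with anti-OSM, against 10.5, 4.38 and 5.31 CPM with anti-Ly6G (-1.37, SE 0.33, adjusted p = 0.0380), and lost its call without any 1 of the anti-OSM libraries, in limma-voom and without the filter. The chemokine gene Cxcl3 had 0.848, 0.947 and 1.51 CPM with anti-OSM, against 2.90, 2.72 and 2.25 CPM with anti-Ly6G (-1.25, adjusted p = 0.0158), which did not pass when anti-OSM replicate 1, anti-OSM replicate 2 or anti-Ly6G replicate 1 was omitted (adjusted p up to 0.0610). Transcripts linked to IkB-zeta or degraded by Regnase-1 had 0 higher and 1 lower (Ccl20) of 11 tested. DESeq2 called 7 of the 28 induced genes lower and 0 of the 10 feedback genes in either direction. Over all 29731 genes with a DESeq2 p-value, 1622 were called higher and 1764 lower. DESeq2 can leave low-count genes without an adjusted p, and how many genes had an adjusted p is not given here. The difference between the lists was not tested.

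**Figure D5:**
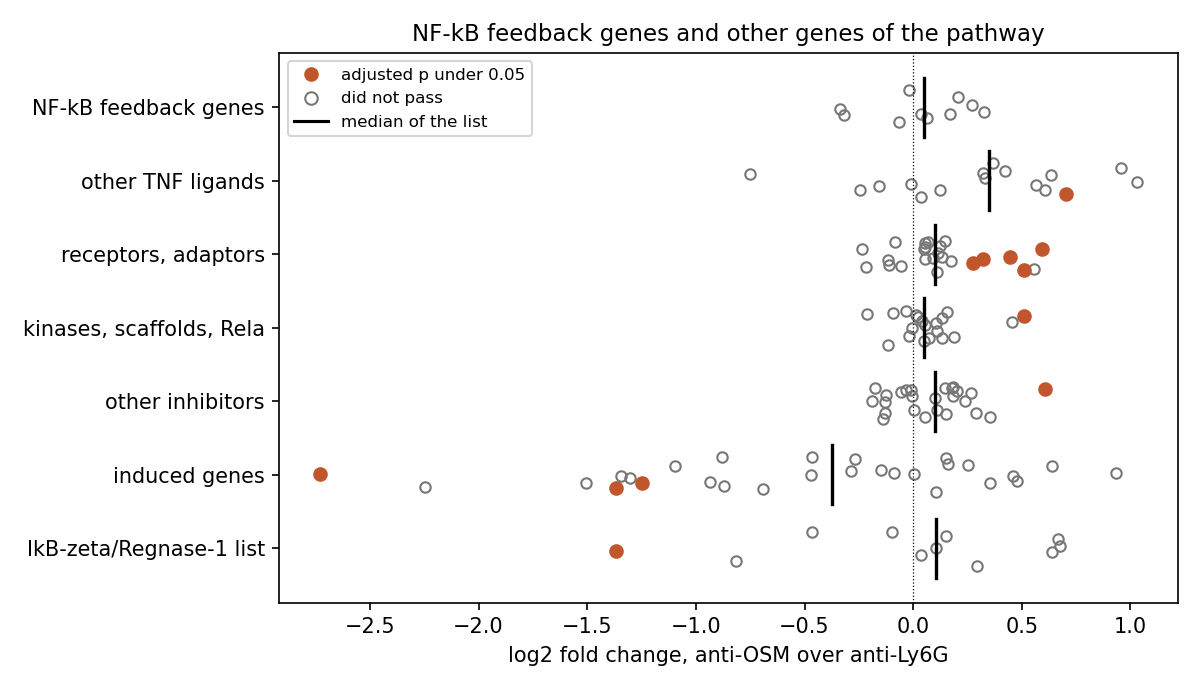
Log2 fold change of anti-OSM over anti-Ly6G for the 10 feedback genes and the 6 other lists, one point per gene, filled where the adjusted p was under 0.05, with the median of each list as a bar. The feedback genes lie between -0.34 and 0.32, while the induced genes reach -2.73 (Ptgs2).

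Markers of several cell types of the skin also differed between the groups, and their counts stand beside 5.81% higher and 6.27% lower over all tested genes. Of 10 macrophage and monocyte markers 4 were called higher and 0 lower, with summed levels of 2111 to 2557 TPM with anti-OSM and 1176 to 1975 TPM with anti-Ly6G. Of 10 dendritic and Langerhans cell markers 7 were higher and 0 lower, with 1466 to 1838 TPM with anti-OSM and 1023 to 1286 TPM with anti-Ly6G. T cell markers had 2 of 10 higher, with 128 to 145 TPM with anti-OSM and 93.5 to 122 TPM with anti-Ly6G. Mast cell markers had 5 of 8 higher, eosinophil markers 3 of 5 and fibroblast markers 4 of 8, all with 0 lower. Keratinocyte markers had 2 of 10 lower and 0 higher, and muscle markers 7 of 8 lower and 0 higher. Endothelial markers had 0 of 6 called, with 131 to 140 TPM with anti-OSM and 114 to 140 TPM with anti-Ly6G. Of 10 neutrophil markers 6 were tested and 0 called, with summed levels of 333 to 490 TPM with anti-OSM and 283 to 479 TPM with anti-Ly6G, and Ly6g itself had at most 3 counts in any library. No marker of these lists was at 0 in all 6 libraries. The part of these cell markers in the values of the 10 feedback genes was not tested.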

How the data were processed

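RNA-seq of ear skin was deposited as 1 table of 6 libraries. Per the file headers, each gene has FPKM, TPM and read count columns. Read counts as deposited were whole numbers. The authors' deposited FPKM was compared with TPM as a check and used in no result, and their deposited TPM for levels and 2 alternative fits. No label or header names the counting tool or its strand setting. The submitters' processing notes name HISAT2 2.1.0, StringTie 2.1.3b and edgeR 3.40.2 among other tools, and mm10 among the builds. Positions are from RefSeq GRCm38.p6, the assembly mm10 names, and exons and untranslated regions from GENCODE M21. No protein sequences were used.

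All genes were fitted together with edgeR 4.0.16 (R 4.3.3): filterByExpr, TMM, robust quasi-likelihood, 2-sided F-tests, Benjamini-Hochberg adjustment over 19915 genes, threshold 0.05, no covariate. Fold changes are anti-OSM over anti-Ly6G. Standard errors and 95% intervals derive from the F statistic. CPM uses TMM-scaled library sizes. A floor of 3 counts was 0.0468 to 0.0575 CPM and covers counting error only. The method was tested on simulated data. No 2 libraries of a group looked like duplicates (chi-square per gene at least 26.2). Alternatives were DESeq2 1.42.0, limma-voom (limma 3.58.1), limma on log2(TPM + 1) and log2(TPM + 0.1), other scalings and filters, a non-robust fit, a replicate block and leaving out each library.

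The 10 genes and all lists were chosen with earlier results of these data known. The text names all 10 genes, every called gene of the pathway lists (at most 6 per list) and, where a list had none, the 2 with the smallest p. Cyld and Rela were named after their values were seen. Il36g is listed in the table as Il1f9. Whether same-numbered libraries pair was checked by the correlation of their deviations from the group means. No row lacked a gene name, and 0 sample columns were left unmapped.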

Additional observations from a re-analysis of the deposited data

How the results depend on the processing

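Among the 10 feedback genes 0 were called higher and 0 lower in all 17 alternative fits, with adjusted p from 0.0663 (Relb, DESeq2) upward. The counts over all genes and over the other pathway genes (8 higher, 3 lower) did move. DESeq2 called 13 pathway genes higher and 7 lower, beside 1622 higher and 1764 lower of the 29731 genes to which it gave a p-value. Limma on log2(TPM + 1) called 735 of all genes higher and 1077 lower, with 4 pathway genes higher and 4 lower. With log2(TPM + 0.1) it called 732 of all genes higher and 1070 lower, with 4 pathway genes higher and 4 lower. Leaving out 1 library gave 240 to 1545 genes higher and 420 to 1447 lower over all genes, and 0 to 15 higher and 1 to 4 lower among the other pathway genes. Over all genes the fewest higher calls came without anti-OSM replicate 3 and the most without anti-Ly6G replicate 3, where 15 pathway genes were higher. The cause of these shifts was not tested. The labels number the libraries 1 to 3 in each group. Same-numbered libraries correlated in their deviations at 0.0116, 0.0375 and 0.124. Anti-OSM replicates 2 and 3 correlated best with the anti-Ly6G library of the same number, but anti-OSM replicate 1 with anti-Ly6G replicate 2 (0.0814). The numbers were not taken as pairs, and this check does not settle whether they are. With a replicate block, 1325 genes were higher and 1275 lower, 11 pathway genes were higher and 6 lower, and 0 of the 10 feedback genes were called. Tnf rests on 120 to 283 reads per library, fewer than any other of the 10 genes.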

Other observations

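By CPM, the library in which each of the 10 feedback genes was highest or lowest differed from gene to gene. Anti-OSM replicate 3 was the highest library for 4 of the 10 (Tnfaip3, Nfkbiz, Zc3h12a and Rel) and the lowest for none, while anti-Ly6G replicate 2 was the lowest for 4 (Tnf, Tnfaip3, Nfkb1 and Nfkb2) and the highest for none. Anti-OSM replicate 1 was the lowest for Nfkbiz and Zc3h12a and the highest for Relb and Nfkb2. Some of these places changed on the TPM scale. The lowest TPM was in anti-Ly6G replicate 1 for Nfkb1 (66.1) and Nfkb2 (30.7), and in anti-OSM replicate 2 for Tnfaip3 (24.9). The highest TPM of Nfkbiz was in anti-Ly6G replicate 1 (40.9). The coefficient of variation of CPM within anti-OSM ran from 1.13% for Nfkb1 to 39.7% for Tnfaip3, and within anti-Ly6G from 2.99% for Rel to 39.3% for Tnf.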
